A study of Mus musculus with 6 samples.

Results

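Sterol and fatty acid synthesis was followed through 28 genes in CV/Fol taste cells, the cells of the circumvallate and foliate papillae of the mouse tongue. The genes were picked by name as members of the pathway and matched by symbol to the deposited table, which held all 28 of them among 23361 genes. The set was selected on the measured values of these same samples, in particular on the difference of Idi2 between the ages, so that difference is given as a description. The cells came from C57BL/6 mice of 2 or 6 months of age with no treatment or genetic change named in the labels. Each age had 3 RNA pools, made from 4 mice each in the younger group and from 3 mice each in the older group, and the design text of the series names 3 months in place of 2 in one passage.

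The authors' deposited table gives 1 FPKM value per gene and age over the 3 pools (read fragments scaled to transcript length and library size, a level that allows genes of different length to be set side by side). Values of single pools were not used here, so no SD and no test is given for any gene, and whether a value was carried by all 3 pools or by 1 of them is not known from it. Differences are log2(FPKM + 1) at 6 months minus 2 months, which understates the difference of weakly expressed genes. The 12652 genes whose mean over the ages reached 1 FPKM are called expressed. The sequencing depth is unknown.

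Of 12 markers of taste cells, 11 were expressed, among them Krt8 at 234 and 197 FPKM and the taste G protein gene Gnat3 at 84.7 and 79.9 FPKM at 2 and 6 months. Keratinocyte genes were abundant as well, with Krt5 of basal keratinocytes at 2180 and 1962 FPKM, and the part of surrounding epithelium in the values below was not tested. In such bulk RNA, fewer cells of a type and less RNA per cell cannot be told apart.

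Cholesterol is built from acetyl-CoA through mevalonate, whose 5-carbon products are joined to squalene and then closed and trimmed to the sterol. Fatty acids are built from the same acetyl-CoA in the cytosol. The SREBP transcription factors drive both branches when membrane sterol is low: the escort protein SCAP carries them from the endoplasmic reticulum to the Golgi for cleavage, and INSIG proteins hold that complex back when sterol is plentiful. Isopentenyl diphosphate isomerase, the step that starts chain building, has 2 genes, Idi1, which is used in most tissues, and Idi2, which is known chiefly from skeletal muscle. In stratified epithelium, cholesterol and fatty acids also supply the lipids of the surface barrier.

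The start regions of Idi1, Idi2 and Hmgcs1 are shown because both isomerase genes lie within 500 kb of each other on chromosome 13 and yet had different values in the table. Hmgcs1, the synthase of an early mevalonate step, is shown as the one member whose window matched the sterol response element form searched. Each run covers 250 bases before and 50 bases after the RefSeq start in GRCm38.p6, plus strand, 5′ to 3′: chr13:8885356-8885655 for Idi1, chr13:8952613-8952912 for Idi2 and chr13:119690101-119690400 for Hmgcs1. Capitals mark matches on either strand to the CCAAT box, the GC box (GGGCGG), the E-box (CACGTG), a second E-box form (CAGCTG) and a common form of the sterol response element (TCACNCCAC). The form CAGCTG was added to the search after the sequence of Idi2 had been seen.
Idi1: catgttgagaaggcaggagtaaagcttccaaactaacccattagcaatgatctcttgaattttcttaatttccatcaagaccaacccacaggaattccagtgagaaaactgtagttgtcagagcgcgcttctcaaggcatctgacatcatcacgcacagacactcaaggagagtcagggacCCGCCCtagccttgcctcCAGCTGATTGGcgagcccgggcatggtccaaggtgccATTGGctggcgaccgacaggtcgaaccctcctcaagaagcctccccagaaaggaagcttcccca
Idi2: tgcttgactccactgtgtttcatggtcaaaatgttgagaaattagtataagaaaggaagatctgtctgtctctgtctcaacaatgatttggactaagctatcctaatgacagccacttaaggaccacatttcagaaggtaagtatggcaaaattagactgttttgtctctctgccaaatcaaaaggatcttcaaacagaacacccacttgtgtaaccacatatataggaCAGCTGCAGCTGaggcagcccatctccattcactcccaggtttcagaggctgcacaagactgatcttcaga
Hmgcs1: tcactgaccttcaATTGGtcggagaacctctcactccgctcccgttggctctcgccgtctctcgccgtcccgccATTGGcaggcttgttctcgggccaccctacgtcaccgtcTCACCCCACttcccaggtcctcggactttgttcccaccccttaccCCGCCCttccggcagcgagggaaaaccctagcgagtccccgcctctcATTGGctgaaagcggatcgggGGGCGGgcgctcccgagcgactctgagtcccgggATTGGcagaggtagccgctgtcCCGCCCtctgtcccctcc

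The Hmgcs1 window held 4 CCAAT and 3 GGGCGG matches and 1 match to TCACNCCAC, and the Idi1 window held 2 CCAAT matches, 1 GGGCGG match and 1 CAGCTG match that abuts a CCAAT match. The Idi2 window had no match to the CCAAT box, the GC box, the E-box or the sterol response element. It held 2 CAGCTG matches next to each other, which begin 21 and 15 bases before the RefSeq start. The GC content was 42.0% for the Idi2 window, 52.3% for Idi1 and 65.7% for Hmgcs1. The median was 60.3% over the members, each taken as the mean of its windows, and 52.7% over all single windows.

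RefSeq windows were found for 22 of the 28 genes, some with more than 1, and the genes without one were Fdps, Fdft1, Sqle, Stard4, Scd1 and Scd2. CCAAT was in the windows of 18 of the 22 (81.8%) and of 41.1% of all 27025 genes with a window, a gene being counted where any of its windows held the match. Idi2, Acaca, Acat2 and Scap lacked it. GGGCGG was also in the windows of 18 of the 22 genes, against 38.2% of all genes. CACGTG was in 4 (Dhcr7, Hsd17b7, Insig1 and Scap) against 8.09%, CAGCTG in 4 (Dhcr7, Idi1, Idi2 and Insig2) against 18.3%, and TCACNCCAC in Hmgcs1 alone, against 1.44%. The 27025 genes were not limited to expressed ones, whereas the members were all expressed, so these shares are not a matched background. A match describes the letters of a window and is not evidence of binding there.

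Idi2 was at 0.170 FPKM in the younger cells and 15.7 FPKM in the older cells. It was thus near 0 in the first group and above the median of expressed genes, which was 11.7 FPKM, in the second. The ratio of the levels was 92.7 and the difference on the log2(FPKM + 1) scale was 3.84. With a pseudocount of 0.1 FPKM in place of 1 the difference was 5.88, since the younger value is small against 1 FPKM.

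Idi1, which encodes the isomerase of most tissues, was at 55.3 FPKM in the younger and 62.1 FPKM in the older cells, a ratio of 1.12 and a log2 difference of 0.16. The more abundant isomerase gene therefore had a slightly higher value at 6 months, and not a lower one. Idi1 was 326 times as abundant as Idi2 in the younger cells and 3.95 times in the older cells. Idi2 made up 0.306% of the summed level of both genes at 2 months and 20.2% at 6 months. The sum went from 55.5 to 77.9 FPKM, and Idi2 added 15.6 FPKM of the difference where Idi1 added 6.80 FPKM.

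**Figure D1:**
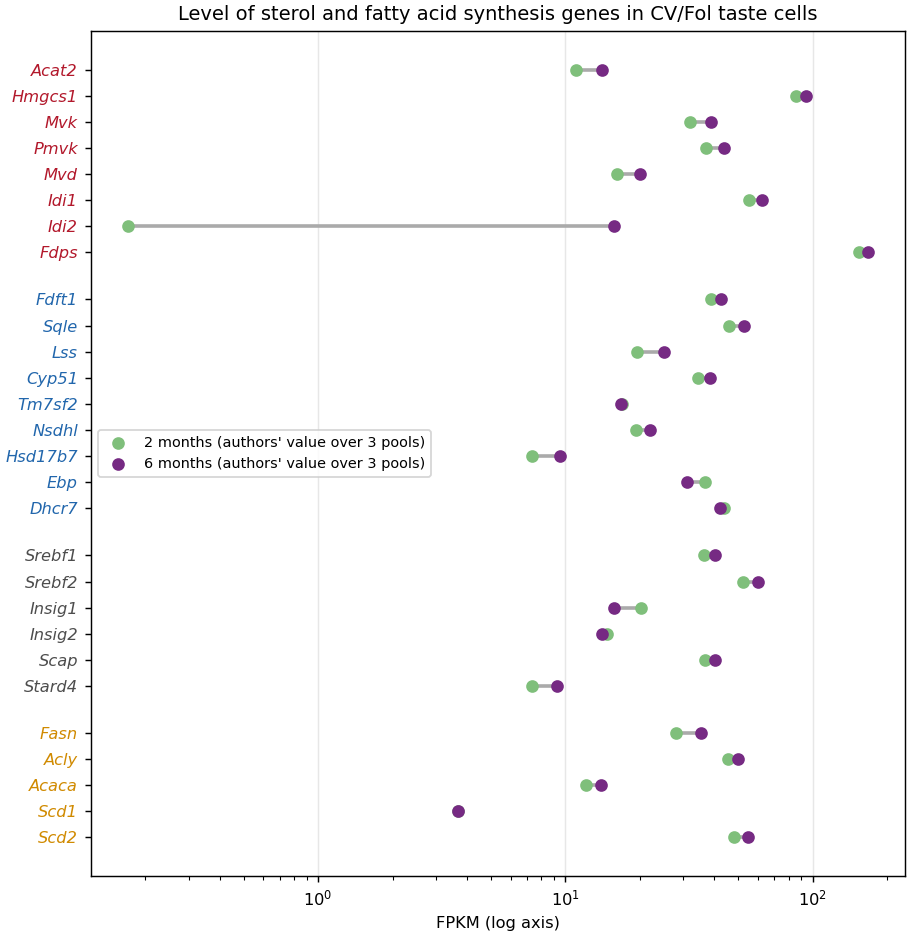
Level of the 28 genes in FPKM on a log axis, one row per gene, with 2 months in green and 6 months in purple and a grey line joining them; each point is the authors' value over 3 pools and carries no error bar. Gene names are coloured red for mevalonate steps, blue for squalene to cholesterol steps, grey for regulators and orange for fatty acid synthesis, and the long line of Idi2 runs from 0.170 to 15.7 FPKM while the points of the other 27 genes lie close together.

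Among all 12652 expressed genes, the difference of Idi2 ranked 24th from the top. Of the genes above it, all but Krt6a were microRNA, small nucleolar or Cajal body RNA genes by their symbols, and when the 222 expressed genes of those classes were set aside Idi2 ranked 2nd of 12430. Krt6a, a keratin gene, was listed at 0 at 2 months and at 3391 FPKM at 6 months, while the related Krt4 was listed at 7334 FPKM and then at 0. An exact 0 in such a table can be a failed estimate. Idi2 was not listed at 0 in either age.

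A value under 0.5 FPKM at 2 months together with at least 5 FPKM at 6 months was found for 30 genes, 28 of them small RNA genes and the others Idi2 and Krt6a. The reverse was found for 46 genes, of which 43 were small RNA genes. These limits were chosen after the values of Idi2 had been seen.

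Idi2 lies on the plus strand of chromosome 13 in GRCm38, from 8952863 to 8960945 in GENCODE, with 5 exons, a transcript of 2253 bases and a coding part of 681 bases. Idi1 is on the same strand at 8885501 to 8892451, also with 5 exons, and its transcript has 3027 bases with 849 coding bases. The aligned coding bases of the genes were 65.8% identical. The longest run that the full transcripts share was 20 bases and no window of 50 bases occurred in both, so a read of that length from either gene does not match the other exactly.

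A closer copy of Idi2 stands next to it. Gm9745, on the minus strand from 8941575 to 8948231, is a protein-coding gene in GENCODE and a pseudogene in RefSeq, and it has no row in the table under that symbol. Its coding part has 681 bases, as that of Idi2 has, and was identical at 99.4% of them. The longest run that the full transcripts of Idi2 and Gm9745 share was 353 bases. Of the 2204 windows of 50 bases in the Idi2 transcript, 608 (27.6%) occur in the Gm9745 transcript. The value of Idi2 is therefore uncertain to the extent that reads of Gm9745 were assigned to it, which was not tested.

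The measured neighbours of Idi2 all had a higher value at 6 months, by small amounts, as did 46.3% of all expressed genes. RefSeq places 15 other genes with a start within 500 kb of the start of Idi2, and 5 of them are in the table. Wdr37 was at 4.42 and 4.67 FPKM, Gtpbp4, a nucleolar GTPase gene whose start is 19.2 kb away, at 30.5 and 31.6 FPKM, Larp4b at 27.6 and 31.2 FPKM, and Dip2c at 2.30 and 2.54 FPKM at 2 and 6 months. Idi1 is the fifth. The log2 differences of these 5 genes ran from 0.05 to 0.17.

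**Figure D2:**
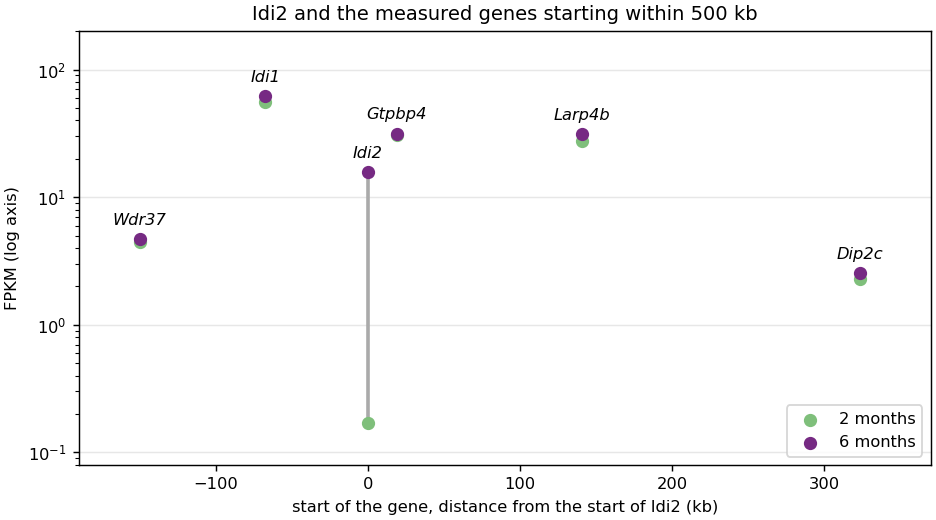
FPKM on a log axis of Idi2 and the 5 measured genes that start within 500 kb of it, against the distance of their starts from the start of Idi2 in kb, with 2 months in green and 6 months in purple. The points of each neighbour nearly coincide, with that of 6 months slightly higher, and those of Idi2 lie at 0.170 and 15.7 FPKM.

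The other genes of the mevalonate steps were all higher at 6 months, by small amounts. Acat2, the cytosolic thiolase that joins acetyl-CoA units, was at 11.1 and 14.0 FPKM at 2 and 6 months, a ratio of 1.27. Hmgcs1 was at 86.0 and 94.1 FPKM, a ratio of 1.09. The ratio was thus larger for the first enzyme, which had the lower level, than for the abundant synthase.

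The kinases and the decarboxylase that follow had closer ratios. Mvk, which encodes mevalonate kinase, was at 32.0 and 38.8 FPKM, a ratio of 1.21. Pmvk, the kinase of the next step, was at 37.0 and 43.9 FPKM, a ratio of 1.18. Mvd, the decarboxylase that yields isopentenyl diphosphate, was at 16.2 and 20.1 FPKM, a ratio of 1.24. These 3 ratios sat between those of Acat2 and Idi1.

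Fdps, which makes farnesyl diphosphate, was the most abundant of the 28 genes at both ages, at 155 and 167 FPKM, and its ratio of 1.08 was the lowest of the mevalonate genes. Without Idi2, the 7 mevalonate genes had log2 differences from 0.11 to 0.32 with a median of 0.24. Their summed level was 392 and 440 FPKM.

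The genes of the squalene to cholesterol steps were split, with 6 of 9 higher at 6 months and a median log2 difference of 0.15. Fdft1, the squalene synthase, was at 38.6 and 42.5 FPKM. Sqle, the epoxidase that adds the first oxygen, was at 46.0 and 52.9 FPKM. Lss, the cyclase that closes the ring system, was at 19.5 and 25.1 FPKM, a log2 difference of 0.35.

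The demethylases that act on lanosterol and its products followed. Cyp51 was at 34.5 and 38.3 FPKM and Nsdhl at 19.3 and 22.0 FPKM. Hsd17b7, which encodes a sterol ketone reductase, was at 7.32 and 9.50 FPKM, the highest ratio of this group at 1.30.

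The 3 genes of this group with a lower value at 6 months encode enzymes that move or reduce double bonds of the sterol. Ebp, the sterol isomerase, was at 36.7 and 31.0 FPKM, a log2 difference of -0.24. Dhcr7, the reductase of a last step to cholesterol, was at 43.6 and 42.3 FPKM, and Tm7sf2, a sterol reductase gene, was at 17.0 and 16.8 FPKM. The differences of Dhcr7 and Tm7sf2, at -0.04 and -0.01, lay within the middle 50% of all expressed genes, which spanned -0.10 to 0.08, and that of Tm7sf2 was 0.03 with the 6 month values scaled to the upper quartile of 2 months.

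Among the regulators, the activators and their escort had higher values at 6 months and Insig1 a lower one. Srebf2, which encodes the factor that acts mainly on sterol genes, was at 52.3 and 60.3 FPKM, and Srebf1, whose product acts mainly on fatty acid genes, was at 36.3 and 40.4 FPKM. Scap was at 36.8 and 40.3 FPKM. The 3 log2 differences were 0.20, 0.15 and 0.13.

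Insig1 was at 20.2 and 15.7 FPKM at 2 and 6 months, a log2 difference of -0.34 that was the lowest of the 28 genes. Of all expressed genes, 3.83% had a difference as low or lower. Insig1 is itself known as a target of SREBP, and it was the only member lower by 0.25 or more. Insig2 was at 14.8 and 14.0 FPKM, a log2 difference of -0.07 that lay within the middle 50% of all expressed genes. Stard4, which encodes a cholesterol carrier, was at 7.32 and 9.22 FPKM, a log2 difference of 0.30 on the opposite side from Insig1.

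The 5 fatty acid genes were all higher or level at 6 months, with a median log2 difference of 0.18. Fasn, the fatty acid synthase, was at 27.9 and 35.2 FPKM, a log2 difference of 0.33. Acly, which makes cytosolic acetyl-CoA from citrate, was at 45.5 and 49.9 FPKM, and Acaca, the carboxylase that makes malonyl-CoA, was at 12.1 and 13.9 FPKM. Of the desaturases that put a double bond into the product, Scd2 was at 48.2 and 54.7 FPKM. Scd1 was at 3.67 and 3.69 FPKM, the lowest of the 28 genes at 6 months and second lowest to Idi2 at 2 months. Scd2 thus had a higher level than Scd1 at both ages.

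**Figure D3:**
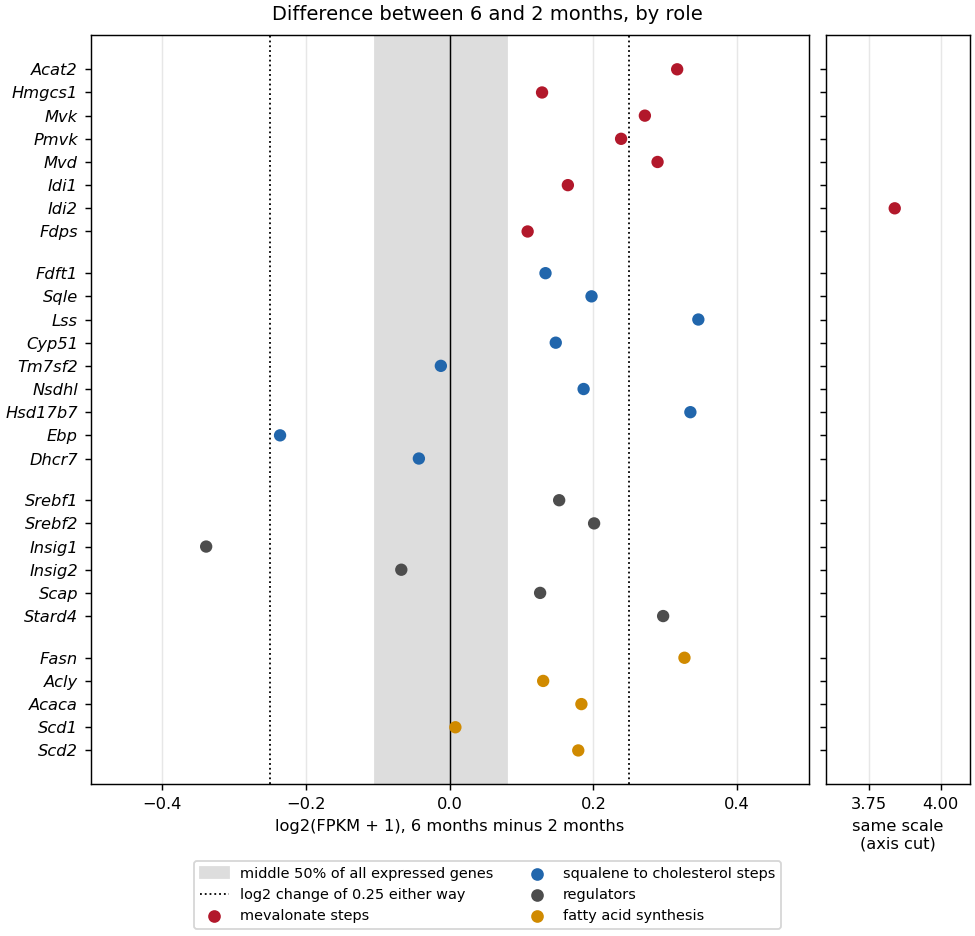
Difference of log2(FPKM + 1) at 6 months minus 2 months for each of the 28 genes, coloured by role, with the axis cut between 0.5 and 3.6 to hold Idi2; the grey band is the middle 50% of all expressed genes, from -0.10 to 0.08, and dotted lines mark 0.25 in either direction. Most points lie right of the band, Insig1 and Ebp lie left of it, and Idi2 stands alone at 3.84.

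As a set, 23 of the 28 genes (82.1%) had a higher value at 6 months, where 46.3% of all expressed genes did. A log2 difference of at least 0.25, or a ratio of about 1.19, was reached upward by 8 of the 28 genes (28.6%), namely Idi2, Lss, Hsd17b7, Fasn, Acat2, Stard4, Mvd and Mvk. The background was 4.8% of the 12652 expressed genes, and 4.15% where the mean had to reach 5 FPKM. Downward it was reached by Insig1, or 3.57% of the set, against 7.08% of expressed genes. Idi2 alone differed by at least 2-fold, against 1.6% of expressed genes.

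Because the set was put together with these values known, the counts describe it and are not evidence that it stands apart. Idi2 passed the limit on mean expression only through its 6 month value, and without it 7 of 27 genes (25.9%) were higher by at least 0.25. Just inside that limit was Mvk at 0.27, and just outside it was Pmvk at 0.24. The median log2 difference was 0.17 over the 28 genes and 0.16 without Idi2, against -0.01 over all expressed genes. The summed level without Idi2 was 959.7 and 1057 FPKM, a ratio of 1.10.

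The order of the levels was similar at both ages. Fdps, Hmgcs1, Idi1, Srebf2, Scd2, Sqle and Acly held the first 7 places at 2 and at 6 months in that order. Idi2 was in the last place at 2 months and in the 22nd at 6 months. Whether neighbours in this order differ cannot be judged without values of single pools.

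**Figure D4:**
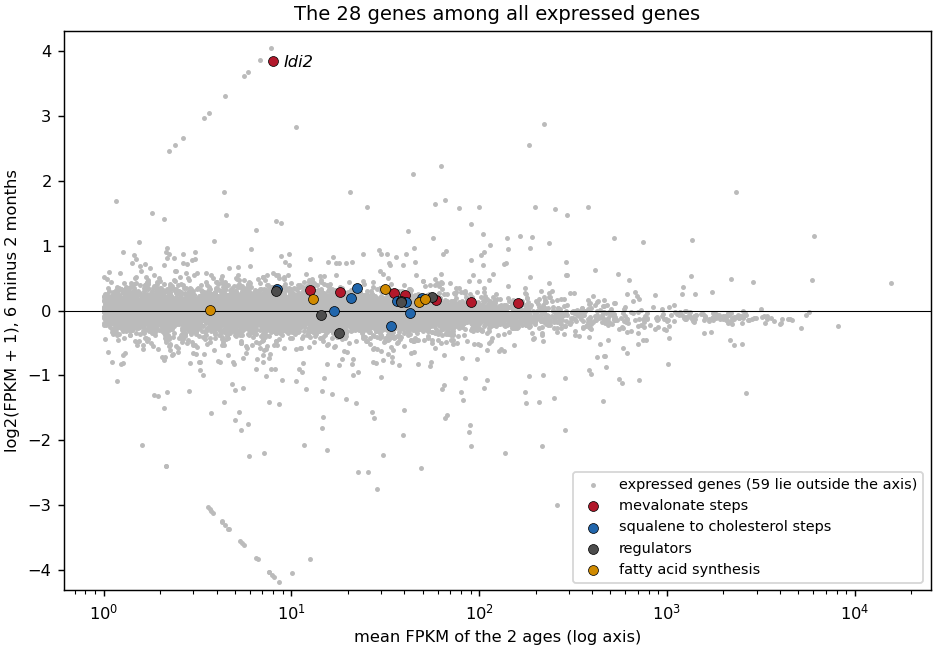
Difference of log2(FPKM + 1), 6 minus 2 months, against mean FPKM on a log axis for all expressed genes in grey, of which 59 lie outside the vertical axis, with the 28 genes coloured by role. Apart from Idi2 at 3.84, the coloured points lie between -0.34 and 0.35 inside the grey cloud, mostly in its upper part.

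Other genes of the pathway, listed for their function, were more evenly split. Of 29 such genes 25 were expressed, 13 of them with a higher and 12 with a lower value at 6 months, and the median log2 difference was 0.01. None was higher by 0.25, and 1 was lower by that amount, the sterol exporter gene Abcg1 at 8.12 and 6.35 FPKM. Over all expressed genes, 46.3% had a higher value, 4.8% were higher by at least 0.25 and 7.08% were lower by at least 0.25. The counts of this list lay near those shares. Sc4mol, a sterol methyl oxidase gene now called Msmo1, was at 74.0 and 76.0 FPKM.

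Of the elongases and desaturases of long fatty acids, Elovl1 was at 149.9 and 135 FPKM, Elovl6 at 21.0 and 22.2 FPKM and Fads2 at 7.75 and 8.47 FPKM. Acacb, a second carboxylase gene best known from muscle, was among the 4 genes with a mean under 1 FPKM. The highest level in this list was that of Por, the electron donor of microsomal oxidases, at 181 and 182 FPKM.

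Markers of other cell types differed between the ages beside these genes. Of 10 skeletal muscle markers, all had a higher value at 6 months, 0 were listed at 0, and 7 were expressed, with a median log2 difference of 0.78. Among all expressed genes 46.3% had a higher value and the median was -0.01. The summed muscle level was 24.3 and 38.2 FPKM. Ckm was at 1.16 and 2.39 FPKM, Mb at 1.82 and 4.28 FPKM, Tnnc2 at 2.14 and 5.57 FPKM, and the myosin heavy chain genes Myh1, Myh2 and Myh4 were all under 0.3 FPKM at both ages. The median ratio of the expressed muscle markers was 2.09, against 92.7 for Idi2, and Idi2 at 6 months was above each muscle marker of the list, Tnni2 at 11.9 FPKM being the highest. The part of muscle RNA in the value of Idi2 was not tested.

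Fat and sebaceous cells, which make much lipid, left little signal. Of 6 adipocyte markers, summing to 0.850 and 3.70 FPKM with Plin1 listed at 0 at 2 months, Fabp4 alone was expressed, at 0.692 and 3.48 FPKM, and the defining adipocyte gene Adipoq was at 0.0444 and 0.0192 FPKM, near 0 at both ages. Of 5 sebocyte markers 3 were listed at 0 in both ages, and Awat2, at 0.890 and 0.540 FPKM, was the highest. The summed level of these markers was 0.909 and 0.540 FPKM.

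Epithelial and gland markers had lower values at 6 months for the most part, as did 6798 of the 12652 expressed genes. All 4 measured cornified keratinocyte markers were lower, with a median log2 difference of -0.70 and sums of 1515 and 852 FPKM, led by Lor at 1292 and 733 FPKM, and Krt10 had the largest difference at -1.08. Of 4 basal keratinocyte markers 3 were lower, with sums of 4484 and 4437 FPKM, and Krt14 was higher at 1287 and 1533 FPKM. The 4 expressed markers of 5 for lingual gland were lower, with sums over the list of 134 and 54.7 FPKM, led by Lipf at 83.7 and 14.7 FPKM. Fibroblast markers summed to 43.5 and 28.5 FPKM, nearly all of it Dcn, with Col1a1, Col1a2 and Col3a1 under 0.2 FPKM. The 12 taste cell markers summed to 514 and 470 FPKM, and the 11 expressed ones had a median log2 difference of 0.05, the largest being that of Tas1r3 at 0.47. No measured marker of these lists was listed at 0. The part of these shifts in the differences of the sterol and fatty acid genes was not tested.

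**Figure D5:**
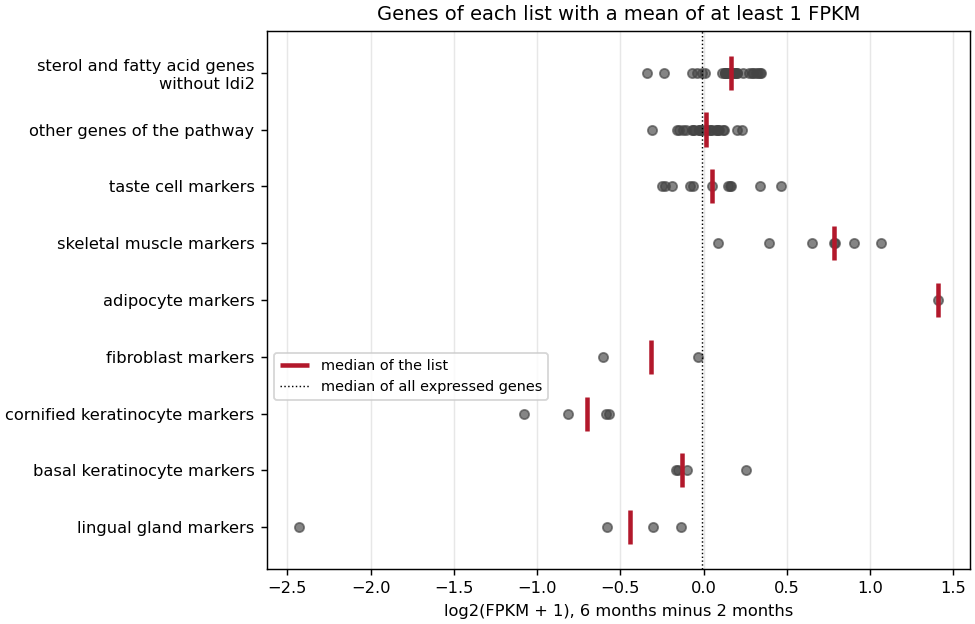
Difference of log2(FPKM + 1), 6 minus 2 months, of the expressed genes of each list as points, with the median of the list as a red bar and the median of all expressed genes as a dotted line. The sterol and fatty acid genes without Idi2 have a median of 0.16, the other pathway genes of 0.01, the muscle markers of 0.78 and the cornified markers of -0.70.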

How the data were processed

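Taste cells were freed from the lingual epithelium with collagenase and dispase, collected by suction and pooled. Poly(A) RNA was made into TruSeq libraries, 3 for each age. Reads were aligned by the authors with TopHat2 2.0.7 to mouse GRCm38/mm10 and RefSeq gene models. They estimated FPKM with Cufflinks 2.1.1 and compared the ages with Cuffdiff. The deposited FPKM values are 1 per gene and age. The p-values that the authors deposited for their own comparison were not used. The columns were assigned to ages by the group letters B and S, which the sample titles share.

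Differences of log2(FPKM + 1) were computed for 23361 genes, and the 12652 whose mean reached 1 FPKM were kept as background. Members, gene lists and limits were chosen with earlier results of these data known. All 28 members and the measured genes starting within 500 kb of Idi2 are named, and of the other lists the highest and the most different genes and examples chosen after their values were seen, except some genes that are not reported here. The calculation was checked on a table with known differences and no noise, which tests the arithmetic and not how reliable the differences are. Start regions and gene positions are those of RefSeq (GRCm38.p6), and all 28 genes were matched. Transcripts are those of GENCODE M21. Alternatives were other pseudocounts, filters and scalings. Python 3.11.15, numpy 2.4.6, pandas 2.3.3, Biopython 1.88 and matplotlib 3.10.9 were used.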

Additional observations from a re-analysis of the deposited data

How the results depend on the processing

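No paired analysis was possible because values are given per age and not per pool, and leaving out each replicate in turn was not run for the same reason. Of 44 values recomputed with other settings, 42 moved by less than 0.25 on the log2 scale or by less than 1.5 times for counts and shares. Several of them could not move. All 28 members had a mean of at least 1 FPKM, so their values were the same without the filter. Scaling cancels out of the share of Idi2, and the filter at 5 FPKM removed only Scd1. The limit of 0.25 was also larger than most of the medians, so this count is not a measure of robustness. The difference of Idi2 was 5.88 with a pseudocount of 0.1 FPKM against 3.84, since its 2 month value is small against 1 FPKM. The number of members that differed at least 2-fold was 0 without Idi2 and 1 with it, an alternative chosen after seeing the data like the others without Idi2. None of these 44 values changed sign. Among single members, Tm7sf2 changed sign with the scaling described next, from -0.01 to 0.03. Scaling the 6 month values by 1.03 to the upper quartile of 2 months gave 9 members higher by 0.25 or more, with 6.44% of expressed genes as background, and moved the median of all expressed genes from -0.01 to 0.03. The median of the mevalonate genes ran from 0.24 to 0.30 over its alternatives, and that of the other pathway genes from 0.01 to 0.05. Differences of 0.1 to 0.3 cannot be set against the spread between pools here.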

Other observations

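Pathways that use or store the products of these genes were followed by lists put together after the values above had been seen. Over all 12652 expressed genes, 46.3% had a higher value at 6 months and 6798 genes had a lower one. A difference of at least 0.25 was reached upward by 4.8% and downward by 7.08%. The counts below describe the lists and are not evidence that a list stands apart. Of 7 protein prenylation genes, whose enzymes attach farnesyl and geranylgeranyl groups, 4 had a higher value at 6 months, and the median log2 difference was 0.07. Of 9 genes of ubiquinone and dolichol synthesis, the other main users of isoprenoid chains, 7 were lower, with a median of -0.06 and none past 0.25 in either direction. The 8 expressed genes of triglyceride synthesis and breakdown were split evenly, with a median of -0.02, and Lipe, the hormone-sensitive lipase gene, was at 9.34 and 7.12 FPKM at 2 and 6 months.

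Of 9 expressed genes of lipid uptake and transport, 6 had a higher value at 6 months, 2 of them by at least 0.25, and the median log2 difference was 0.12. Fabp5, the fatty acid binding protein gene of epidermis, was at 2457 and 3316 FPKM, a log2 difference of 0.43. Lrp1, a lipoprotein receptor gene, was at 10.7 and 15.1 FPKM, and Lipa, the lysosomal acid lipase gene, at 3.43 and 2.56 FPKM. Of 12 peroxisome genes, 8 had a lower value at 6 months, the median log2 difference was -0.05, and Cat, the catalase gene, was at 134 and 99.99 FPKM. No test was run on any of these values.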
